A study of Mus musculus with 16 samples.

Results

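H3K27me3 peaks were examined at 43 mouse genes of fast and modulatory amino acid transmission. They encode subunits of the AMPA, kainate, NMDA and delta glutamate receptors, metabotropic glutamate receptors, GABA-A and glycine receptors, the vesicular transporters of glutamate and of GABA and glycine, and the enzymes that make GABA. The genes were listed by name, and each was taken as its annotated body extended by 2 kb to each side, split into the gene ends (2 kb to each side of an annotated end) and the interior. They were set against the other 21588 of 21631 protein-coding genes on the 19 autosomes and the X chromosome, in the mouse build mm10. A gene is called marked in a library when at least 1 base of a peak overlaps it.

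The cells are CCN6KOT, tumour cells of a CCN6 knockout mouse labelled as spindle metaplastic breast cancer, so both groups lack CCN6 and both come from 1 line. The first group of 4 libraries carried the lentiviral construct dnTCF4, described in the series as a dominant negative of beta-catenin signalling. The second group of 4, PPGS in the sample titles, is taken here as carrying the control lentivirus named in the protocols. The series design text instead speaks of parental and dnTCF4 cells, so the sources do not settle how the control cells were made. Cells of both groups are described as selected with puromycin. The series names the role of EZH2 in the chromatin of these tumours as its question, and no library here alters EZH2 itself. The labels number the libraries 1 to 4 in each group and do not say that they are separate cultures, so the p-values below reflect library-to-library spread that may be technical.

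H3K27me3 is written by EZH2, the catalytic subunit of Polycomb repressive complex 2, and is found over silent genes. Glutamate receptors carry most fast excitation in the brain, and GABA-A and glycine receptors most fast inhibition. Many of these genes are silent outside the nervous system, where Polycomb and the repressor REST, which binds the RE1 element, are known to act on neuronal genes.

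The lists of dnTCF4 libraries 1 to 4 held 21492, 191, 4885 and 1838 peaks, and those of control libraries 1 to 4 held 426, 738, 54070 and 22745. Peaks covered between 0.129 and 16.6 Mb in the dnTCF4 libraries and between 0.242 and 52.7 Mb in the control libraries. Peak lists give no sequencing depth, and a gene without a peak may still carry the mark. The counts below moved with list length, and values with lists cut to equal length are given beside them. Of 20 housekeeping genes 0 were marked in any library, while the epithelial gene Epcam was marked in all 8. Both results were the same in the 2 groups, so they cannot check the group labels. They are also a weak check of the H3K27me3 label. Epcam was the most often marked gene of a list chosen with earlier results known. In dnTCF4 2, control 1 and control 2 at most 1.06% of all genes were marked, so 0 of 20 says little there. Of 10 epithelial genes 6 were marked, the others in at least 3 libraries being Grhl2, Spint1, Esrp1 and Cdh1. Of 10 mesenchymal genes 1 was marked, Col3a1 in control 3 alone. Peak lists do not measure expression.

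Of the 43 genes, 19 were marked in at least 1 library (44.2%), against 4607 of the 21588 other genes (21.3%). Over all genes tested the share was 21.4%. In dnTCF4 libraries 1 to 4 the marked genes numbered 13, 0, 6 and 5, and in control libraries 1 to 4 they numbered 2, 0, 19 and 9. All 19 marked genes stood in the list of control 3, the longest, and 13 of them in that of dnTCF4 1, the longest of its group. Without control 3, 14 genes remained marked in any library. With peaks of a deposited −log10 q of at least 2 the count was 8, and with lists cut to equal length it was 3. Shares over all genes are not given for these settings, and with fewer peaks they too can only fall or stay. A drop here or below is therefore not by itself a result about these genes.

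The marked share of these genes was above that of the other genes in 6 libraries. It was below in dnTCF4 2 and control 2, which marked none of them. It was 30.2% in dnTCF4 1 (95% Wilson interval 18.6 to 45.1), against 13.7% over all genes. In dnTCF4 3 it was 14.0% (6.56 to 27.3) against 5.13%, and in dnTCF4 4 it was 11.6% (5.07 to 24.5) against 2.41%. These 3 libraries have lists of very different length and the same order of both shares. The share was 4.65% in control 1 (1.28 to 15.5) against 0.675% over all genes, a level that 1 marked gene of the 43 would already exceed. In control 3 it was 44.2% (30.4 to 58.9) against 20.1%, and in control 4 it was 20.9% (11.4 to 35.2) against 12.5%. In dnTCF4 2 and control 2, 0 of 43 genes were marked, which allows a share of up to 6.98% by the limit of 3 counts (the Wilson upper bound is 8.2%), above the 0.254% and 1.06% of all genes there. The intervals cover counting error only.

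**Figure D1:**
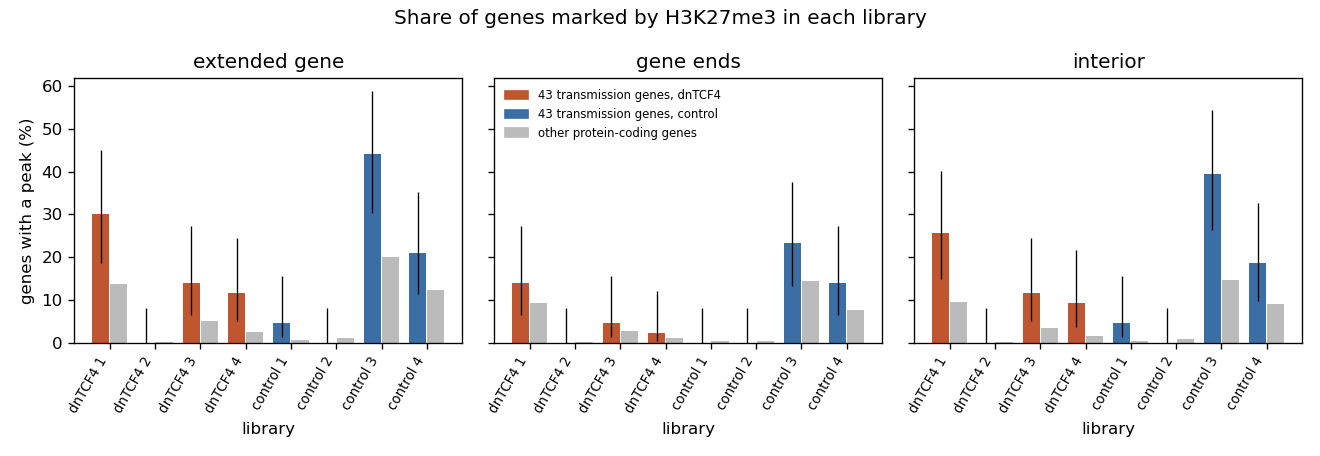
Bars give the percent of genes with a peak in each library, for the extended gene, its ends and its interior, with 95% Wilson intervals for the 43 genes. Coloured bars are the 43 genes (dnTCF4 on the left, control on the right) and grey bars the other protein-coding genes. For the extended gene, coloured bars stand above the grey in 6 libraries, from 30.2% against 13.7% in dnTCF4 1 to 20.9% against 12.4% in control 4. In dnTCF4 2 and control 2 the coloured bars stand at 0.

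Group means did not separate. The dnTCF4 libraries marked 6.0 ± 5.35 of the 43 genes and the control libraries 7.5 ± 8.58 (SD, n = 4 each). The difference of −1.5 genes lay well within the spread of either group. Without 1 library it ranged from −4.0 to 2.33: it was −4.0 without control 2, −3.83 without dnTCF4 1, −3.33 without control 1, −1.0 without control 4, 0.5 without dnTCF4 2 and 2.33 without control 3. It was −6.0 with the libraries of at least 1000 peaks, −2.25 with at least 200 bases covered, −0.5 with the stricter q and 0.0 with lists of equal length. The mean marked share over the 8 libraries exceeded that of the other genes by 8.74 percentage points, by 3.93 with the stricter q, by 13.5 with the libraries of at least 1000 peaks and by 0.832 with lists of equal length.

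Marks lay in the interior more often than at the ends. Of the 43 genes, 18 had a peak in the interior in any library (41.9%, against 15.6% over all genes) and 11 at an end (25.6%, against 15.8%). Both places were marked in 10 genes, the interior alone in 8 and an end alone in 1, Grm6. Among the other marked genes the order differed, with 2153 marked in both places, 1193 in the interior alone and 1261 at an end alone. The count at the ends was 6, 0, 2 and 1 in dnTCF4 libraries 1 to 4, where 9.29, 0.0925, 2.83 and 1.07% of all genes were so marked. It was 0, 0, 10 and 6 in control libraries 1 to 4, where 0.296, 0.356, 14.5 and 7.66% of all genes were. Ends of these genes were called mostly in the 3 longest lists. In the interior the count was 11, 0, 5 and 4 in dnTCF4 libraries 1 to 4, against 9.54, 0.18, 3.56 and 1.66% of all genes, and 2, 0, 17 and 8 in control libraries 1 to 4, against 0.448, 0.823, 14.6 and 9.19%. Leaving out control 3 left 7 genes marked at an end, the stricter q left 3 and lists of equal length left 0.

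The 43 genes are long. Their median length was 94.0 kb (6.79 to 922), against 17.3 kb for the other genes, so their interiors offer more bases for a peak to overlap. Per kb of interior they carried fewer covered bases than the other genes in dnTCF4 libraries 1, 3 and 4, at 1.84, 0.503 and 0.12, against 5.57, 0.999 and 0.253. The same held in control 3 and control 4, at 4.78 and 1.46 against 17.7 and 5.59, while control 1 had 0.126 against 0.0711. At the ends, where genes offer a similar length, the 43 genes had 12.2, 2.53 and 1.11 covered bases per kb in dnTCF4 1, 3 and 4, against 12.5, 2.6 and 0.692 in the other genes. In control 3 and control 4 the ends had 37.1 and 10.8 against 25.6 and 9.09, and in control 1 they had 0 against 0.217. At the ends the 43 genes were thus lower than the other genes in dnTCF4 1, dnTCF4 3 and control 1 and higher in dnTCF4 4, control 3 and control 4. More of the genes were thus touched by a peak, while the covered density of their interiors was lower in 5 of the 6 libraries.

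**Figure D2:**
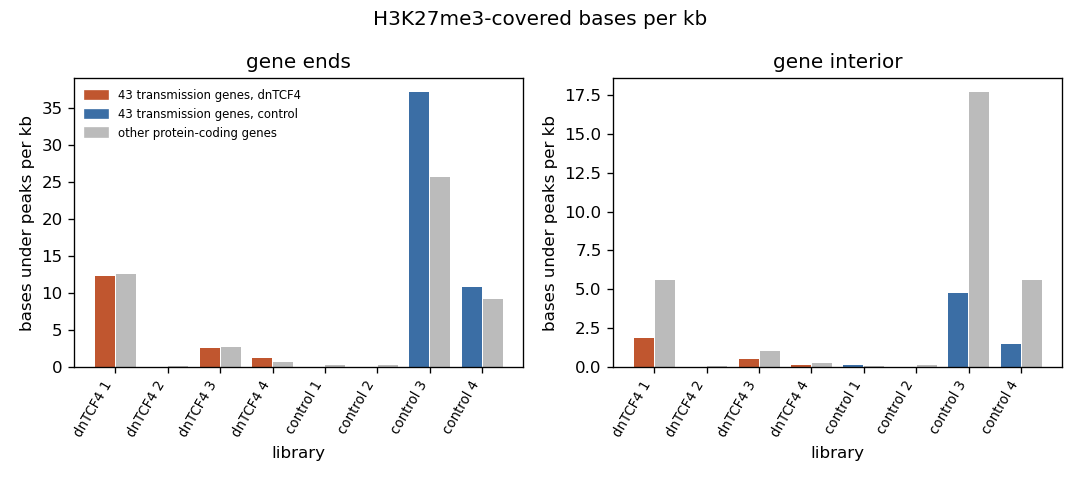
Bases under peaks per kb of gene ends (left) and interior (right) in each library, for the 43 genes (dnTCF4, then control) and for the other protein-coding genes in grey. In control 3 the ends stood at 37.1 against 25.6 and the interior at 4.78 against 17.7.

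Split by length, the excess lay in the shorter genes. Of the 8 genes under 20 kb, 5 were marked (62.5%, against 15.9% of the other genes of that length), and of the 14 genes of 20 to 100 kb, 6 were (42.9% against 24.1%). Of the 21 genes of 100 kb or more, 8 were marked (38.1%), close to the 39.1% of the other long genes. At the ends 2 of these 21 long genes were marked (9.52% against 20.8%), and 1 of them was marked in at least 3 libraries (4.76% against 21.3%). Genes of the 43 marked in at least 3 libraries had a median length of 35.9 kb and those marked in none 130 kb. Among the other genes the order was the opposite, with 35.5 kb for those marked in at least 3 libraries and 15.3 kb for those marked in none. The classes are small, and no test was made of them.

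**Figure D3:**
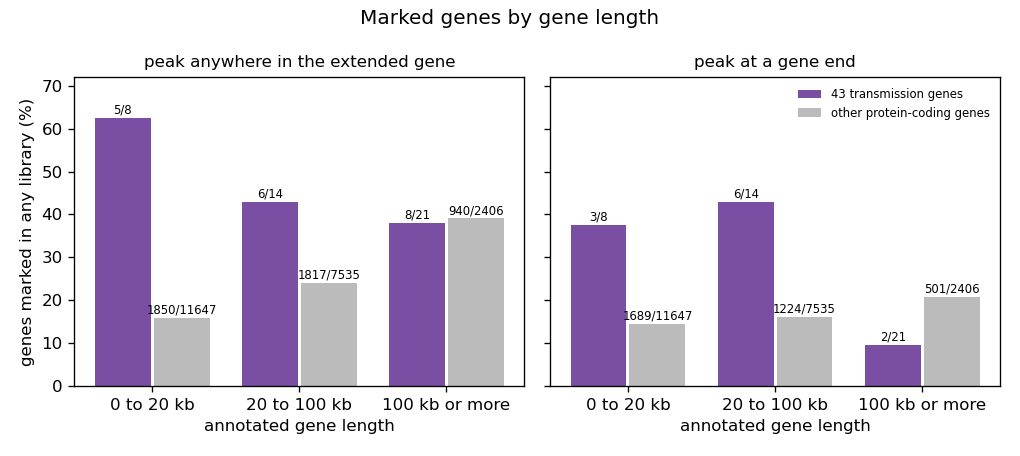
Percent of genes marked in any library by annotated gene length, anywhere in the extended gene (left) and at a gene end (right), with marked over all genes above each bar. Below 100 kb the 43 genes stood above the other genes, and at 100 kb or more they stood at 38.1% against 39.1%, and at the ends at 9.52% against 20.8%.

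Peaks rarely sat on the start of transcription itself. RefSeq gives promoter sequences for 33 of the 43 genes. None of the 33 had a peak on its 300 bases around the start, against 380 of 17241 other genes (2.2%). Within 500 bases of the start there were 3 (Gabrr1, Gad1 and Glrb, 9.09% against 4.63%), within 2000 bases 8 (24.2% against 12.3%) and within 5000 bases 10 (30.3% against 19.5%). Every one of these 10 owed its nearest peak to control 3. The nearest edge lay 0.268 kb before the start of Gad1, 0.393 kb before that of Glrb and 1.16 kb after that of Grin1. In Gad2, Gabrb1 and Grm3 the nearest peak was 44.4, 194 and 220 kb into the gene.

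The starts of 4 genes are shown, chosen by the number of libraries with a peak at the start end, with 1 gene per role. That number was 5 for Slc32a1, 3 for Gad1, 3 for Glrb and 2 for Grin1. They are the 250 bases before the RefSeq transcript start in GRCm38.p6, read 5′ to 3′ along the gene's strand, with each CG dinucleotide in capitals. Slc32a1, the vesicular GABA and glycine transporter, is at chr2:158610508-158610757 on the plus strand with 12 CG. Gad1, an enzyme that makes GABA from glutamate, is at chr2:70561879-70562128 on the plus strand with 17 CG. Glrb, the glycine receptor subunit that anchors the receptor to gephyrin, is at chr3:80913661-80913910 on the minus strand with 20 CG. Grin1, the subunit every NMDA receptor needs, is at chr2:25319188-25319437 on the minus strand with 27 CG. Gabra6, a GABA-A subunit of cerebellar granule cells at chr11:42321073-42321322 on the minus strand, was marked in no library and has 2 CG, and it was added as a contrast after the values were seen.
Slc32a1: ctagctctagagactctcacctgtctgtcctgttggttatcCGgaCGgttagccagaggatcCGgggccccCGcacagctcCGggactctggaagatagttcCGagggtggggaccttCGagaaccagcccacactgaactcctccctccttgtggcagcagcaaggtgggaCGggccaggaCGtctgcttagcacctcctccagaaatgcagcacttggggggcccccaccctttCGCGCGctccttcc
Gad1: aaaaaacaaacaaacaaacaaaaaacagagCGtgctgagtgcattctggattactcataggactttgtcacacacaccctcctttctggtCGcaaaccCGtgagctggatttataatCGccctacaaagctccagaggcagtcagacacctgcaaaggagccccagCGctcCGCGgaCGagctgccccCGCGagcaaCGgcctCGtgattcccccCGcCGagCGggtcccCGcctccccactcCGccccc
Glrb: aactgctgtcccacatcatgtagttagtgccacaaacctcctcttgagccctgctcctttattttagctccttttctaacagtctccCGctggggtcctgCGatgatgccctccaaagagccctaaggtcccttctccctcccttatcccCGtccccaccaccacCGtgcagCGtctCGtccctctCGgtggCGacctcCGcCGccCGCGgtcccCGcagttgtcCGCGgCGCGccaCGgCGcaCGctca
Grin1: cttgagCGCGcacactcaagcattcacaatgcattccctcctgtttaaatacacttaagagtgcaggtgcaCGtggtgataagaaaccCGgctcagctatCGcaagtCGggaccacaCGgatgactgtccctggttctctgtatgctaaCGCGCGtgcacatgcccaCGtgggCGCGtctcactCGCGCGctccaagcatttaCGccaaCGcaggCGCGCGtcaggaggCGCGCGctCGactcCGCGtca
Gabra6: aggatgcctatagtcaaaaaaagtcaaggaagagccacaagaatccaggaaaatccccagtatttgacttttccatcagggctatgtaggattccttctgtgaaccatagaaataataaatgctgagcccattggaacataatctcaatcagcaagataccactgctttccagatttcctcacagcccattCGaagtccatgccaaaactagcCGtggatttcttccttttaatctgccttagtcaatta
The first 4 are rich in CG near the start and Gabra6 is not, but this contrast did not extend over the whole list. Over the 300-base promoters, the 7 genes marked in at least 3 libraries had a median of 21 CG and the 20 unmarked genes 12, with a range of 2 to 50 among the unmarked. Grik3, with 50 CG, was marked in no library. The other genes ran the opposite way, with a median of 11 CG in those marked in at least 3 libraries and 15 in those marked in none.

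The promoters were also searched on both strands for TTCAGCACC and GGACAGC, which are parts of the RE1 element. TTCAGCACC was found in 1 of 33 promoters, that of the unmarked Grm2, against 83 of 17241 other promoters (0.481%). GGACAGC was found in 4 (Gad2, Glrb, Gria2 and Grm2; 12.1%), against 8.08% of the others. In Glrb it lies on the strand opposite to the one printed above. A match is a description of these letters and not a binding site.

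**Figure D4:**
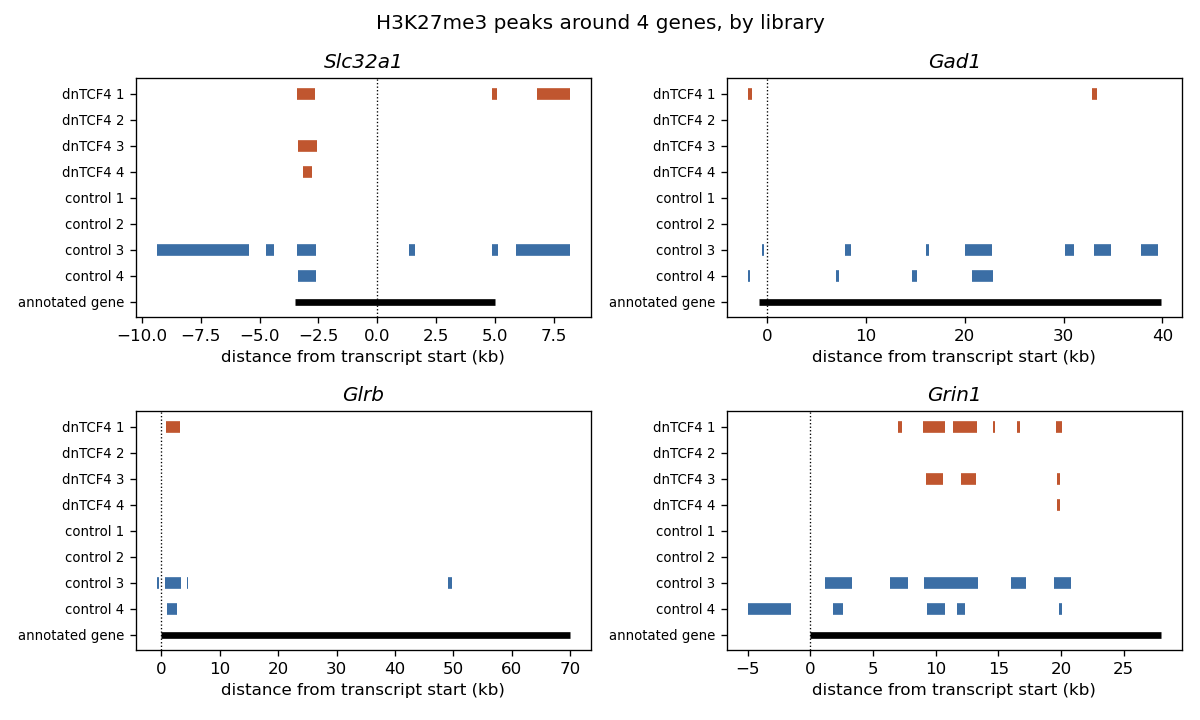
Peaks of each library around Slc32a1, Gad1, Glrb and Grin1, by distance from the RefSeq transcript start (dotted line) in kb, with the annotated gene as a black bar, dnTCF4 libraries above and control libraries below. The peak at −3.42 to −2.58 kb from the transcript start of Slc32a1 recurred in 5 libraries, and the body of Grin1 was covered around 9.03 to 13.4 kb in 4.

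Of the 43 genes, 10 were marked in at least 3 libraries (23.3%, against 10.5% over all genes). This count was 6 without dnTCF4 1 or without control 3, 5 with the stricter q and 0 with lists of equal length. In at least 2 libraries of each group 5 were marked (11.6%, against 5.02%), namely Grm4, Grin1, Grin2c, Slc32a1 and Gad2. That count was 3 without dnTCF4 1 or dnTCF4 3 and 2 without control 3 or control 4, and it was 3 with the stricter q and 0 with lists of equal length. The genes are described below by role, with the bases under peaks in each library.

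Among the metabotropic glutamate receptors, which act through G proteins, 4 of 7 were marked. Grm4, a presynaptic receptor that lowers transmitter release (chr17:27422387-27513826), was marked in 6 libraries, more than any other of the 43. It had 5702, 0, 1300 and 453 bases under peaks in dnTCF4 libraries 1 to 4, and 1003, 0, 8792 and 3948 in control libraries 1 to 4. The groups overlapped, with the libraries numbered 2 at 0 in both. Its 37 peaks were 25.2% of the 147 peaks over the 43 genes and merged into 13 regions, 3 of which recurred in 5 libraries. These 3 lay in the interior, at chr17:27436332-27437193, chr17:27444488-27445352 and chr17:27496431-27497871. The covered share averaged 1.95% ± 2.74 in dnTCF4 libraries and 3.6% ± 4.13 in control libraries (SD, n = 4 each; exact permutation p = 0.629, adjusted p = 1).

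The other marked metabotropic receptors had less. Grm3, which like Grm2 couples to inhibition of adenylyl cyclase, had 2359 bases in dnTCF4 1 and 511 in control 3. It was the 1 gene of the 19 whose mean covered share was higher in dnTCF4 libraries. Grm8 had 2943 bases and Grm6, the receptor of retinal ON bipolar cells, 411, in control 3 alone. Grm2, Grm5 and Grm7 had no peak in any library.

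Among the NMDA receptor subunits, 4 of 7 were marked, 3 of them in at least 3 libraries. Grin1 (chr2:25291177-25319187) had 4912, 0, 2739 and 199 bases under peaks in dnTCF4 libraries 1 to 4, and 0, 0, 10411 and 3563 in control libraries 1 to 4. The highest value was in control 3, and both groups held libraries at 0. The mark lay in the body. The region chr2:25298422-25299744, 19.4 to 20.8 kb after the start, was called in dnTCF4 1, 3 and 4 and in control 3 and 4, with a deposited fold enrichment of 3.52 to 5.16. The region chr2:25305821-25310156, 4336 bases wide, was called in 4 libraries. No dnTCF4 library covered an end of Grin1, where control 3 had 838 bases and control 4 had 643. The covered share averaged 6.13% ± 7.27 in dnTCF4 libraries and 10.9% ± 15.3 in control libraries (SD, n = 4 each; exact permutation p = 0.714, adjusted p = 1). Lrrc26 overlaps Grin1 in the annotation, so peaks there cannot be given to 1 gene.

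Grin2c, the NMDA subunit of the mature cerebellum (chr11:115249169-115267297), had 1669, 0, 167 and 0 bases in dnTCF4 libraries 1 to 4, and 212, 0, 5205 and 1579 in control libraries 1 to 4. It carried no mark at its ends in any library. The region chr11:115261228-115265172, from 2.07 kb after the start, was called in 5 libraries. The covered share averaged 2.07% ± 3.66 in dnTCF4 libraries and 7.9% ± 10.9 in control libraries (SD, n = 4 each; exact permutation p = 0.457, adjusted p = 1).

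Grin3a, a glycine-binding subunit that lowers calcium permeability, is 184 kb long and held a single region, chr4:49690275-49690897. It had 279, 0, 0 and 247 bases in dnTCF4 libraries 1 to 4, and 0, 0, 623 and 0 in control libraries 1 to 4. Its fold enrichment was 4.4 in dnTCF4 1, 5.44 in dnTCF4 4 and 4.31 in control 3, where it ranked 152 of 54070 peaks. By fold it stood at percentile 97.2, 91.5 and 99.7 of these lists in the same order. Ppp3r2 overlaps Grin3a in the annotation. Grin2b, a subunit prominent in the developing brain, had 432 bases in control 3 alone. Grin2a, Grin2d and Grin3b were unmarked.

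Of the AMPA, kainate and delta glutamate receptor genes, none was marked in 3 or more libraries. Of 3 AMPA subunits, Gria1 had 253 bases in control 3 alone, and Gria2 and Gria4 had none. Of 5 kainate subunits, Grik4 had 193 bases in dnTCF4 1 and 2858 in control 3, and Grik1 had 370 in control 3 alone. Grik2, Grik3, Grik5 and the delta receptor gene Grid1 were unmarked. The median length was 319 kb for the AMPA and 395 kb for the kainate genes, and Grid1 is 763 kb long.

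Both GABA-synthesising enzymes and the vesicular GABA transporter were marked in at least 3 libraries. Slc32a1 (chr2:158607260-158615747) had 1180, 0, 799 and 381 bases under peaks in dnTCF4 libraries 1 to 4, and 0, 0, 2781 and 759 in control libraries 1 to 4. Its mark was at the gene ends, apart from 224 interior bases in control 3. The recurring region chr2:158607339-158608174 lies just inside the upstream annotated end, before the transcript start whose sequence is printed above. The covered share averaged 4.72% ± 4.09 in dnTCF4 libraries and 7.09% ± 10.5 in control libraries (SD, n = 4 each; exact permutation p = 0.886, adjusted p = 1).

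Gad1 (chr2:70561303-70602014) had 948, 0, 0 and 0 bases in dnTCF4 libraries 1 to 4, and 0, 0, 8188 and 3213 in control libraries 1 to 4. Its 13 peaks fell into 10 regions, of which 3 recurred in a second library, and control 3 and control 4 shared 1 region. Gad2, the second GABA-synthesising enzyme (chr2:22621015-22693877), had 1342, 0, 297 and 0 bases in dnTCF4 libraries 1 to 4, and 0, 0, 4974 and 604 in control libraries 1 to 4. Its 1 recurring region, chr2:22674911-22677401, lay 52.6 to 55.1 kb after the start and was called in 2 libraries of each group. The exact permutation p was 0.429 for Gad1 and 0.714 for Gad2 (adjusted p = 1 for both). Slc17a7, a vesicular glutamate transporter, had 233 bases in dnTCF4 1 and 514 in control 3, and Slc17a6, another one, had none.

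Of the 10 GABA-A subunits outside the rho class, 2 were marked. Gabrd, the delta subunit of extrasynaptic receptors (chr4:155384979-155398098), had 329, 0, 0 and 0 bases in dnTCF4 libraries 1 to 4, and 0, 0, 1067 and 1413 in control libraries 1 to 4. Most of this lay in 1 region at an end, chr4:155398587-155399653, and Cfap74 overlaps the gene in the annotation. Gabrb1, a beta subunit, had no base under a peak in any dnTCF4 library, and 0, 0, 2332 and 982 in control libraries 1 to 4. Of the 43 genes it alone had 2 or more control libraries and no dnTCF4 library, a pattern seen in 2.0% of all genes, and 0 of the 43 had the opposite pattern (0.0601% of all genes). Gabra4 overlaps Gabrb1 in the annotation. Gabrb1 did not pass a test (Fisher's exact test p = 0.429, adjusted p = 1). Gabra2, Gabra4, Gabra5, Gabra6, Gabrb2, Gabrg1, Gabrg3 and Gabrp were unmarked.

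Gabrr1, a rho subunit known from retinal GABA receptors (chr4:33132556-33163588), had 379, 0, 410 and 255 bases in dnTCF4 libraries 1 to 4, and 0, 0, 1954 and 0 in control libraries 1 to 4. The peaks of dnTCF4 1 and dnTCF4 3 lay at the same place, that of dnTCF4 4 at another, and control 3 had both. It was marked in 3 dnTCF4 libraries and 1 control library (Fisher's exact test p = 0.486, adjusted p = 1). It also held the strongest peak over any of the 43 genes by fold enrichment. At chr4:33154519-33154901, control 3 had a peak of 5.56-fold, with a deposited −log10 q of 7.55, which ranked 6 of 54070 peaks in that list by fold. The same place in dnTCF4 4 had 5.37-fold and ranked 175 of 1838. Gabrr2, its neighbour on the chromosome, was unmarked.

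Of the 3 glycine receptor genes, Glrb was marked and the alpha subunit genes Glra1 and Glra3 were not. Glrb (chr3:80843598-80913660) had 2390, 0, 0 and 0 bases in dnTCF4 libraries 1 to 4, and 0, 0, 4117 and 1655 in control libraries 1 to 4. These covered bases were mostly in 1 region next to the start, chr3:80910309-80913109, 0.551 to 3.35 kb into the gene and called in 3 libraries. The covered share averaged 0.807% ± 1.61 in dnTCF4 libraries and 1.95% ± 2.63 in control libraries (SD, n = 4 each; exact permutation p = 0.714, adjusted p = 1).

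**Figure D5:**
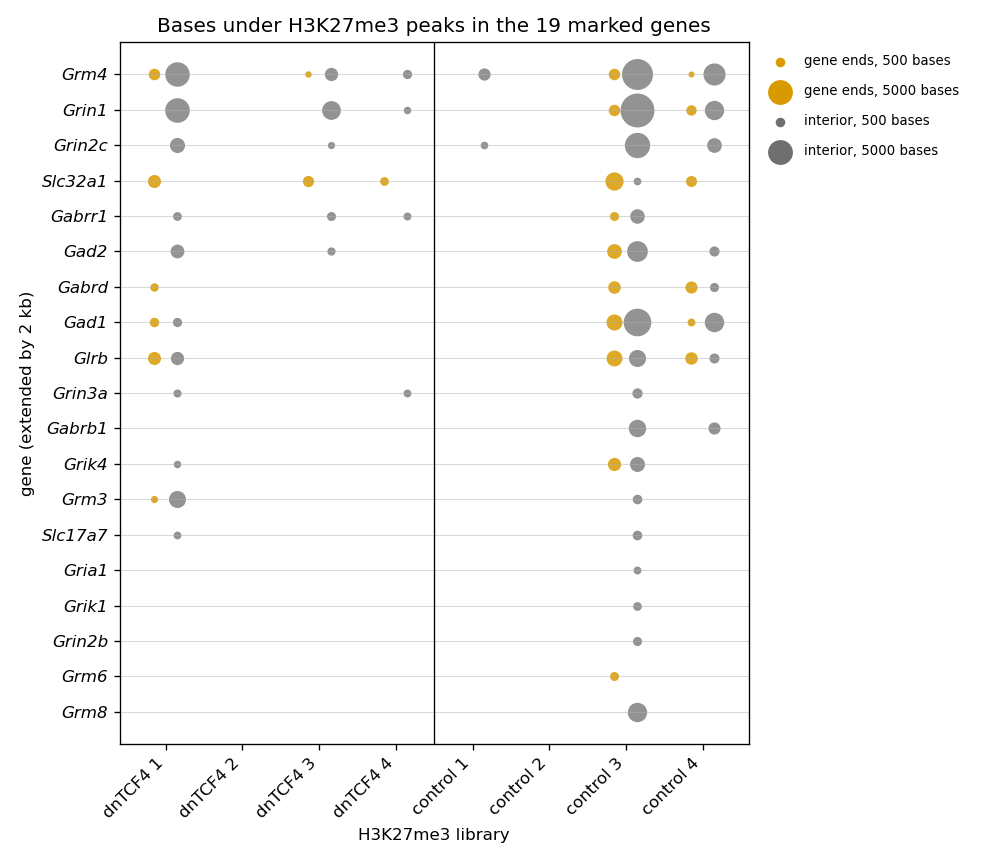
Bases under peaks in the 19 marked genes, by library, with dnTCF4 left of control. Circle area grows with the number of bases, gold for gene ends and grey for the interior. The columns of dnTCF4 2 and control 2 are empty, Grm4 is filled in 6 libraries, and Gria1, Grik1, Grin2b, Grm6 and Grm8 have a circle in control 3 alone.

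Over all genes no difference between the groups was called. Fisher's exact test of marked libraries, over 21631 genes, gave 0 genes past an adjusted p of 0.05 (0.0%) and 0 at an unadjusted p under 0.05. The exact permutation test of covered share, over 4626 genes, gave 0 (0.0%) and 1 unadjusted (0.0216%), and that gene was not among the 43. Of the 43 genes, 4 were marked in more dnTCF4 than control libraries (Grin1, Slc32a1, Gabrr1 and Grin3a; 9.3%, against 2.48% over all genes), and 10 in more control than dnTCF4 libraries (23.3% against 13.2%). The mean covered share was higher in control libraries for 18 of the 19 marked genes, as it was for 88.8% of all marked genes. With 4 libraries against 4, neither test can give a p under 0.0286. The smallest p of Fisher's exact test seen over all genes was 0.143. Because dnTCF4 2 and control 2 marked none of the 43, with 0 covered bases in each, neither test could give any of them a lower p. That none of the 43 passed either test, adjusted or not, was thus fixed in advance. The adjusted p-values therefore do not show that the groups were alike.

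Part of the calls recurred between libraries at the same place. The 147 peaks over the 43 genes (38 at ends, 109 in the interior) merged into 78 regions, of which 34 were called in at least 2 libraries and 28 in both groups. Another 6 were called in dnTCF4 libraries alone and 44 in control libraries alone. Of the regions called in dnTCF4 1, 25 of 33 were also called in control 3, as were 9 of 10 in dnTCF4 3 and 6 of 6 in dnTCF4 4. In control 1 it was 3 of 3, and in control 4 it was 17 of 24. The same counts were not made over all peaks, and control 3 has the longest list, at 54070 peaks. These overlaps therefore cannot be called a trait of the 43 genes. The 4 genes with most peaks, Grm4, Grin1, Gad1 and Slc32a1, held 82 of the 147 (55.8%).

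By fold enrichment, peaks over the 43 genes stood above the middle of their list in 5 of the 6 libraries. Their median percentile was 65.9, 71.7 and 62.8 in dnTCF4 1, 3 and 4, and 65.3, 49.5 and 72.6 in control 1, 3 and 4. These medians rest on 35, 12 and 6 peaks in dnTCF4 1, 3 and 4, and on 3, 65 and 26 in control 1, 3 and 4. Many of these peaks lie in the same few genes, and the library with most of them, control 3, was the exception. The differences in fold were small. Their median fold enrichment was 3.62, 4.22 and 4.63 in dnTCF4 1, 3 and 4, against 3.5, 4.05 and 4.48 over the whole lists. In control 1, 3 and 4 it was 4.59, 3.0 and 3.54, against 4.49, 3.01 and 3.39. The widest peak over one of these genes was 4303 bases, in Grin1 in control 3, while the widest of that whole list was 27567 bases.

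Marked genes were not spread evenly over chromosomes. All 4 genes on chromosome 2 (Gad1, Gad2, Grin1 and Slc32a1) were marked in at least 3 libraries, against 17.4% of the other genes there. Chromosome 2 held 14.7% of all peaks and 8.24% of genes. Of the 7 genes on chromosome 7, 1 was marked, Slc17a7, a share close to the 11.8% of the other genes there. Without chromosome 2, the marked share of the remaining 39 genes was 23.1, 0, 7.69 and 7.69% in dnTCF4 libraries 1 to 4, against 13.0, 0.217, 4.33 and 2.06% of the other genes. In control libraries 1 to 4 it was 5.13, 0, 38.5 and 12.8%, against 0.626, 0.989, 19.6 and 11.9%. The share of the list thus remained above that of the other genes in the same 6 libraries, by the least in control 4. It stayed at 0, below the other genes, in dnTCF4 2 and control 2.

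Related genes outside the list carried the mark too. Over all genes 21.4% were marked in any library, and among other genes of 100 kb or more 39.1% were. Some of the related genes are long, such as Dlgap1 at 852 kb. Control 3, with the longest peak list, marked 5, 9, 16 and 7 genes of the first 4 gene lists below. Of 14 other receptor subunit genes, 5 were marked (35.7%), with the GABA-A subunit genes Gabrq and Gabrr3 in 2 libraries of each group and Gabra3 in 1 dnTCF4 and 2 control libraries. Of 16 genes of transmitter transport and metabolism, 9 were marked (56.2%), led by the glial glutamate transporter Slc1a2 in 3 dnTCF4 and 2 control libraries and Slc1a3 in 2 of each. Slc1a1, Slc6a13 and Abat, which encode a glutamate transporter, a GABA transporter and the enzyme that breaks down GABA, were each marked in 1 dnTCF4 and 2 control libraries. Of 28 genes for scaffolds and auxiliary subunits, 16 were marked (57.1%). Shank3, a postsynaptic scaffold, and Cacng2, an AMPA receptor auxiliary subunit, were each marked in 4 dnTCF4 and 3 control libraries, Cacng4 in 3 of each and Dlgap1 in 2 of each. Shisa7 had a peak in 1 dnTCF4 library and in 2 control libraries. Of 18 other neuronal genes, 8 were marked (44.4%), with the splicing factor gene Rbfox3 in all 8 libraries the neurofilament gene Nefh in 3 dnTCF4 and 2 control libraries, the dopamine transporter gene Slc6a3 in 2 dnTCF4 and 3 control libraries, and Syp in 1 dnTCF4 and 2 control libraries. Tubb3, Map2, Nefl and Syn1 were among the genes of the same list without a peak in any library, so its genes went both ways. Of 8 immune and endothelial genes, 3 were marked, with Kdr in 3 libraries of each group, Cd3e in 2 of each and Ptprc in 1 dnTCF4 and 2 control libraries. Fisher's exact test over all genes called 0 genes in each of these lists (adjusted p under 0.05; 0 also at an unadjusted p under 0.05).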

How the data were processed

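H3K27me3 ChIPmentation (immunoprecipitation with tagmentation on the beads) gave 8 peak lists, 4 per group; the 8 IgG samples were not analysed here. MACS2 2.1.2, bedtools 2.28.0, SAMtools 1.2, Picard 2.20.2, Bowtie2 2.3.4.1, cutadapt and Trim Galore were used with the build mm10, per the submitters' processing notes. Tool options were not given in the sources used here. Each deposited list has 9 columns with 1 score per peak, the authors' fold enrichment (a ratio over background), and their deposited −log10 p and −log10 q values. The lowest deposited −log10 q was 1.01. The fold and q values are the authors' own per peak and served only to describe and filter peaks inside their list. Peaks were called per library, per the peak names in the deposited lists. No counts are given, so depth is unknown.

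Gene bodies came from RefSeq (GRCm38.p6, the same assembly as mm10), and all 43 genes matched by symbol. Strand came from the RefSeq promoter table, which holds 17274 of the genes and 33 of the 43. Genes were tested over the whole table with two-sided Fisher's exact tests and two-sided exact permutation tests of covered share (70 assignments), each Benjamini-Hochberg adjusted and called under 0.05. Both were tested on simulated data. The fits have no block, because libraries with the same number did not regularly deviate together (correlations −0.774, 0.765, −0.248 and −0.502 for numbers 1 to 4). Those numbered 2 did, but dnTCF4 2 deviated with control 1 to a like degree (0.76). These correlations cannot tell whether equal numbers share a batch. No p was computed over the list.

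Full values are given for genes marked in at least 3 libraries or differing by at least 2 libraries between groups, and other genes of the 43 by counts or covered bases. Genes of other lists are named where marked in at least 3 libraries, at most 6 per list in order of the number of libraries and then of mean covered share. One gene that the rule names is not reported here. Col3a1 and the neuronal genes named without a peak fall outside this rule and were chosen after their values were seen. The 43 genes, the other lists and the rules were chosen with earlier results of these data known. Tools were Python 3.11.15, NumPy 2.4.6, pandas 2.3.3, SciPy 1.17.1, statsmodels 0.14.6 and matplotlib 3.10.9.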

Additional observations from a re-analysis of the deposited data

Results flagged for a closer look

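In 2 genes of the 43, 1 library stood far from the other 3 of its group in covered bases, by Dixon's criterion for groups of 4. Grin2c had 1669 bases under peaks in dnTCF4 1, against 0, 167 and 0 in the other dnTCF4 libraries. Gad2 had 4974 in control 3, against 0, 0 and 604 in the other control libraries. In both genes the library that stood apart has the longest peak list of its group. Chance flags about 1 in 20 groups of normally distributed values, which covered bases with many zeros are not. Groups with fewer than 2 libraries above 0 were not examined. The number of groups examined is not given, so the 2 flags cannot be set against that rate.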

How the results depend on the processing

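The number of genes marked in any library (19 of 43) was 8 with peaks of a −log10 q of at least 2 and 3 with lists cut to equal length (Grm4, Grin1 and Gabrr1). At the gene ends (11) it was 3 and 0 under the same settings, and 7 with only the end where transcription starts. In at least 2 libraries of each group (5) it was 3 and 0. In at least 3 libraries (10), a count whose alternatives were chosen after seeing the data, it was 5 and 0. The peaks that remained above the stricter q lay in Grin2c, Grm4, Grin1, Slc32a1, Glrb, Gabrr1, Grin3a and Grik4. Leaving out 1 library at a time gave 14 to 19, 7 to 11, 2 to 5 and 6 to 10 genes for these 4 counts. The same counts over all genes are not given, and with fewer peaks they too can only fall or stay.

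The mean marked share of the 43 genes minus that of the other genes, 8.74 percentage points, ranged over 6.54 to 10.1 without 1 library and 0.832 to 13.5 otherwise, lowest with equal lists. The difference between groups of −1.5 genes per library ranged over −4.0 to 2.33 without 1 library and −6.0 to 0.0 otherwise. With the replicate number as a block it was −1.5, and 0 genes were called by either test, whose smallest p with 4 pairs is 0.125. The labels do not say whether equal numbers pair the libraries. Neither test called a gene under any alternative. The lowest adjusted p was 1 for Fisher's test and 0.395 to 1 for the permutation test. Peak lists carry no depth, so a gene without a peak may carry the mark.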
